A study of Homo sapiens with 2 samples.

Results

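The genes described here encode the DREAM and MuvB complexes, the pocket proteins and their closest regulators. They are 10 of the 20098 protein-coding genes of the annotation used, listed by name as parts or regulators of the complex: LIN9, LIN37, LIN52, LIN54 and RBBP4 (the MuvB core), RB1, RBL1 and RBL2 (the pocket proteins), FOXM1 and DYRK1A. A peak was assigned to a gene when at least 1 of its bases lay no more than 1000 bp from an annotated transcription start site (TSS) of that gene, on either side. The peaks come from chromatin immunoprecipitation followed by sequencing (ChIP-seq) of MYBL2 in A673, an established Ewing sarcoma (EwS) cell line, labelled wild type and with no treatment given in the labels. The labels describe a monoclonal rabbit antibody to MYBL2, while the methods of the study describe an antibody to the phosphorylated, activated protein. Both cite the same Abcam catalogue number, so the same antibody is meant. There was 1 ChIP library and 1 input library of the same cell line, so no value has a replicate error and no comparison between groups could be tested. The list held 66954 peaks, and a peak says nothing of whether a gene was expressed, which was not measured in these libraries.

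MuvB is a small assembly of proteins that changes partners through the cell cycle. With the pocket proteins p107 or p130 (from RBL1 and RBL2), E2F4 or E2F5 and a DP protein it forms DREAM, which represses cell cycle genes in resting cells. With MYBL2, and later with FOXM1, the same core activates genes of the G2 and M phases, which it reaches through a short element named CHR. MYBL2 also carries a DNA-binding domain of its own. Of the genes below, those of the MuvB core encode the assembly that MYBL2 joins. The others encode proteins that join MuvB in its other forms, act on it or belong to the same family.

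All 10 genes had MYBL2 peaks at their promoters. Over all protein-coding genes the share was 59.4%, and over the 13200 with a CpG-rich promoter it was 79.1%. CpG-rich means an observed/expected CpG ratio of at least 0.6 within 500 bp of the canonical TSS, and 9 of the 10 genes belonged to that class, LIN52 alone lying just under it at 0.592. The 10 genes also each had a promoter peak with a fold enrichment of at least 5, against 49.6% of all protein-coding genes. LIN52 reached 5 only by a peak with its summit 60 bp from the canonical TSS of the neighbour ALDH6A1. The peak at the TSS of LIN52 had 4.86. LIN54 reached 5 only at TSSs other than its canonical one. Fold enrichment is the pileup of fragments at the peak summit over the local background from the input, after the same small constant was added to both. The genes were named by hand and are not independent draws, so the shares stand beside the count as background and no test was made.

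The short sequences around the TSSs of 5 of these genes are shown because they hold the letters by which MuvB and E2F proteins are known to bind. Each window runs 5′ to 3′ on the strand of the gene in GRCh37, from 100 bases before the TSS of the canonical transcript, and is 130 bases long. Capitals mark matches to the searched motifs. Both strands were searched. The CHR was either TTTGAA or the variant TTCGAA in full. The CCAAT box was those 5 letters. The E2F motif was TTTCCCGC, TTTCGCGC, TTTGCCGC or TTTGGCGC. The MYB motif was CAACGG, the variant CAACTG, the variant TAACGG or the variant TAACTG. The ETS core was CCGGAAGT. No allowance was made for other forms, and overlapping matches were all counted. The first 2 windows hold a CHR and lie at chr1:226496836-226496965 (LIN9, minus strand) and chr16:53468283-53468412 (RBL2, plus strand).
LIN9: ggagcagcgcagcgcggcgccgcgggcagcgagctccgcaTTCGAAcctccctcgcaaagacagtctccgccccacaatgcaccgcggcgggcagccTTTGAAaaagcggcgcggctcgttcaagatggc
RBL2: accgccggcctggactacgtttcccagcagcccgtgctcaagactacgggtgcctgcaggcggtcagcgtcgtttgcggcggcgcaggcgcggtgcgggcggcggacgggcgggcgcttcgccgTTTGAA
The other 3 windows hold an E2F motif and lie at chr14:74551559-74551688 (LIN52, plus strand), chr13:48877787-48877916 (RB1, plus strand) and chr20:35724371-35724500 (RBL1, minus strand).
LIN52: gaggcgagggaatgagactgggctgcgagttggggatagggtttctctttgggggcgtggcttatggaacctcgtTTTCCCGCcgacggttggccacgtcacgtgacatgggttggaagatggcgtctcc
RB1: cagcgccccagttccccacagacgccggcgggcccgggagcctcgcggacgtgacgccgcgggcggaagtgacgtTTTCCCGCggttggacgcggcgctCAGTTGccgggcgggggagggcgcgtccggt
RBL1: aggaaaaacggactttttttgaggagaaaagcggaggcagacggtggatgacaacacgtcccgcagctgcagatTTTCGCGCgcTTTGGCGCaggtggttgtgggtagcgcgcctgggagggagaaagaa

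The windows were chosen because they hold these letters, and they end 29 bases after the TSS. LIN9 also has the E2F letters TTTCCCGC further on, beginning 85 bases after its TSS. In LIN9, the CHR occurred in both of its forms, TTCGAA at 60 bases before the TSS and TTTGAA across the TSS itself. In RBL2, the CHR was the last 6 bases of the window, at positions 24 to 29 (the TSS is position 0). In RB1 and LIN52, the identical E2F letters TTTCCCGC began 25 bases before the TSS. RBL1 held E2F letters at 2 places, TTTCGCGC and TTTGGCGC, beginning 26 and 16 bases before the TSS. A MYB match (CAGTTG on the other strand) overlapped the TSS of RB1.

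The MuvB core genes spanned the whole range of promoter signal in the set. LIN37 (ENSG00000267796), a core subunit needed for repression by DREAM, had the strongest peak, with a fold enrichment of 19.99. LIN54 (ENSG00000189308), which encodes the subunit that contacts the CHR, had the weakest, with 6.07. The number of ChIP fragments over the summit, which the fold enrichment and its p together fix, was 88 at LIN37 and 26 at LIN54. Their intervals (16.1 to 24.6 against 4.04 to 8.78 in fold enrichment, 95% Poisson on the fragments) did not overlap. All such intervals take the background as known and cover counting error only. They would be too narrow where duplicate fragments were counted, since those are not independent molecules.

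The LIN37 peak lay at chr19:36238938-36239662, next to a gene annotated at chr19:36239262-36245420 on the plus strand. Its summit was 43 bp upstream of the nearest TSS of LIN37 and 258 bp upstream of the canonical one. The same peak covers a TSS of the lncRNA gene ENSG00000267439 on the opposite strand, 30 bp from the summit. This peak was stronger than the best promoter peak of 93.6% of the protein-coding genes that had one. No other promoter peak was assigned to LIN37.

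RBBP4 (ENSG00000162521; chr1:33116743-33151812, plus strand), a histone-binding protein shared with several chromatin complexes, had a broad peak of 2469 bp at chr1:33115603-33118071. The fold enrichment was 11.9 (9.19 to 15.2), from 62 fragments. The summit was 4 bp upstream of the nearest TSS. This window also belongs to ZBTB8OS on the opposite strand, whose canonical TSS is 658 bp from that of RBBP4. Further peaks at internal TSSs of RBBP4 were weaker, with fold enrichments of 4.94, 2.90 and 2.84.

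LIN9 (ENSG00000183814; chr1:226418850-226497570, minus strand), the scaffold subunit that binds MYBL2, had 1 promoter peak, at chr1:226496126-226497632. Its fold enrichment of 10.9 (8.32 to 13.9) came from 60 fragments. The summit lay in the 5′ UTR, 12 bp downstream of the TSS, and no other gene shared the peak. Of the 10 genes, LIN9 alone had both a CHR and a MYB match within 50 bp of its summit.

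LIN52 (ENSG00000205659; chr14:74551659-74668196, plus strand), the subunit that DYRK1A phosphorylates to bring in the pocket proteins, had its best peak at a neighbour. That peak, chr14:74550812-74551258, had a fold enrichment of 6.29 (4.22 to 9.05) from 27 fragments. Its summit was 563 bp upstream of the LIN52 TSS but 60 bp from the canonical TSS of ALDH6A1, a metabolic enzyme gene on the opposite strand. At the LIN52 TSS itself a separate peak, chr14:74551531-74551800, had a fold enrichment of 4.86 (3.13 to 7.25) from 22 fragments, with its summit 71 bp into the gene. The intervals of these peaks overlapped, and each held the point value of the other peak.

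LIN54 (chr4:83831126-83934079, minus strand) likewise had a pair of small peaks. The stronger, chr4:83934218-83934635, had its summit 393 bp upstream of the nearest TSS. The weaker, chr4:83933905-83934115, had a fold enrichment of 5.07 (3.29 to 7.51) from 23 fragments, with its summit 12 bp downstream of a TSS. Both lay over 2 kb upstream of the canonical TSS (2496 and 2052 bp), and with canonical TSSs alone LIN54 had no promoter peak and the count became 9 of 10. A CHR (TTTGAA) began 21 bases before the summit of the weaker peak.

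**Figure D1:**
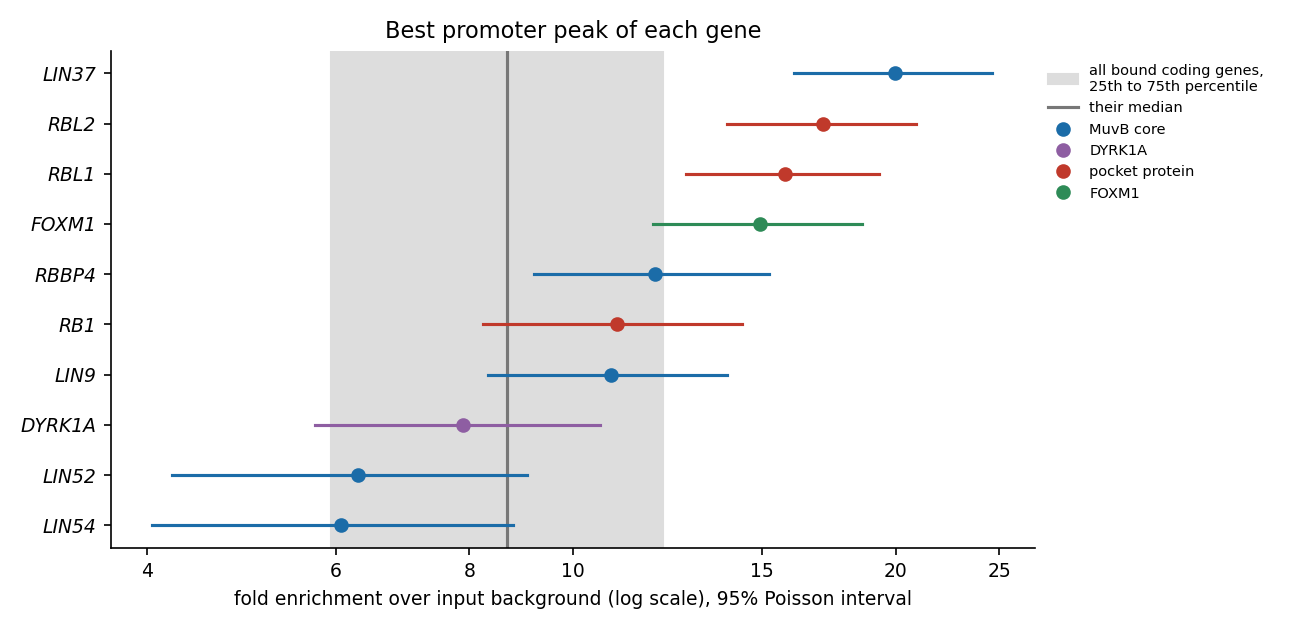
Best promoter peak of each of the 10 genes: fold enrichment over the input background on a log axis (points, coloured by role) with 95% Poisson intervals from the fragments at the summit (lines), for 1 ChIP library. Grey marks the 25th to 75th percentile (5.94 to 12.1) and the median (8.67) of all protein-coding genes with a promoter peak; LIN37, RBL2, RBL1 and FOXM1 lie right of the grey band and no gene lies left of it.

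The 3 pocket protein genes all lay above the median of bound protein-coding genes. RBL2 (ENSG00000103479; chr16:53467889-53525560, plus strand) encodes p130, the main pocket protein of DREAM in resting cells. Its peak at chr16:53468114-53469213 had a fold enrichment of 17.1 (13.9 to 20.9) from 96 fragments, the highest fragment number among the best peaks of the 10 genes. The summit was 29 bp upstream of the canonical TSS. A weak peak of fold enrichment 3.82 followed 1085 bp into the gene.

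RBL1 (ENSG00000080839; chr20:35624752-35724400, minus strand) encodes p107, the relative of p130 found in dividing cells. The peak at chr20:35723512-35725020 had a fold enrichment of 15.8 (12.7 to 19.3) from 92 fragments, with its summit 89 bp upstream of the TSS. It was shared with the lncRNA gene ENSG00000269846 on the opposite strand. Another peak of fold enrichment 3.82 fell on a coding exon 27814 bp into the gene, beside an internal TSS. RBL1 and RBL2 differed by less than counting error.

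RB1 (ENSG00000139687; chr13:48877880-49173572, plus strand) encodes the retinoblastoma protein, which restrains the activator E2F proteins and is not a subunit of DREAM. The peak at chr13:48877166-48878330 had a fold enrichment of 10.99 (8.24 to 14.4) from 51 fragments. Its summit also lay 89 bp upstream of the canonical TSS, and 14 bp from a TSS of RB1-DT, the divergent lncRNA gene. The interval of RB1 was below the point estimates for RBL1 and RBL2 but overlapped both of their intervals.

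FOXM1 (ENSG00000111206; chr12:2966846-2986340, minus strand) encodes the transcription factor that follows MYBL2 on MuvB. The peak at chr12:2985277-2988063 was the widest of the 10 best peaks, at 2787 bp. It had a fold enrichment of 14.95 (11.9 to 18.6) from 78 fragments. The summit lay 78 bp upstream of the FOXM1 TSS and 29 bp from the TSS of RHNO1, a DNA damage response gene on the opposite strand whose canonical TSS is 49 bp away. A TSS of TULP3 falls in the same window, so signal cannot be divided among the 3 genes. Further promoter peaks of FOXM1, at internal TSSs, had fold enrichments of 2.39, 2.61 and 3.52.

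DYRK1A (ENSG00000157540; chr21:38737875-38898660, plus strand) encodes the kinase that phosphorylates LIN52. Its best peak, chr21:38738785-38740359, had a fold enrichment of 7.89 (5.74 to 10.6) from 42 fragments, below the median of bound protein-coding genes by its point value, though its interval spanned that median. The summit lay in the 5′ UTR, 128 bp downstream of the canonical TSS. An adjacent peak at chr21:38737996-38738564 was of like size, with 7.75 (5.57 to 10.5) from 39 fragments. The remaining 9 of its 11 promoter peaks had fold enrichments of 2.32 to 3.53. DYRK1A has 21 annotated TSSs, more than any other gene of the set, and each adds a window in which a peak is counted.

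In order of fold enrichment, no gene stood apart from the next. Every gene overlapped its neighbours in the order in its interval, and of the 45 pairs of genes 28 overlapped and 17 did not. Overlap does not show that a pair is equal, since this rule can miss a difference larger than counting error. LIN37 lay above RBBP4 and every gene after it in the order beyond counting error. DYRK1A, LIN52 and LIN54 lay below LIN37, RBL2, RBL1 and FOXM1 by the same measure, and LIN52 and LIN54 also below RBBP4. In the plot of best promoter peaks, 7 of the 10 genes had values above the coding median. Their own median was 11.5, against 8.67 over all protein-coding genes with a promoter peak and 8.99 over those with a CpG-rich promoter. The median width of their best peaks was 1336 bp, against 865 bp over bound protein-coding genes.

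**Figure D2:**
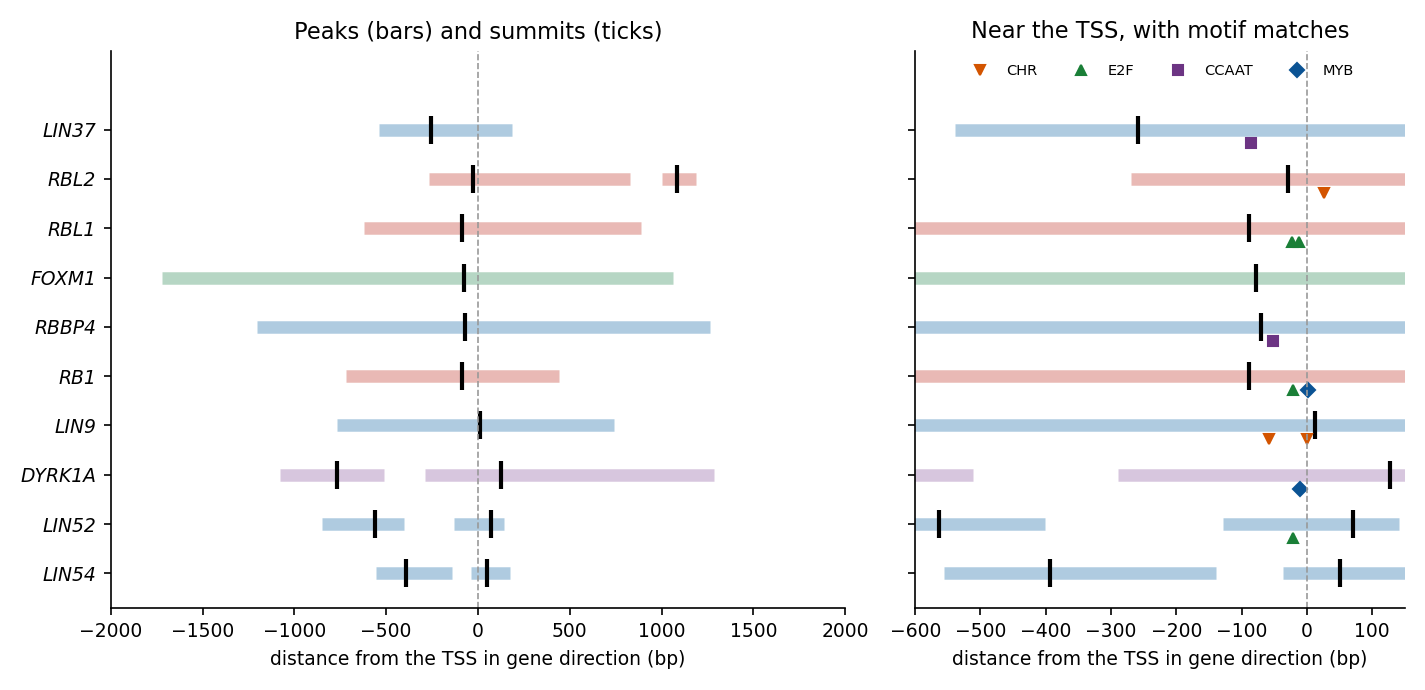
Promoter peaks (bars) and their summits (ticks) by distance in bp from the TSS in the direction of the gene, with a wider view on the left and the motif matches near the TSS of genes other than FOXM1 on the right (CHR, E2F, CCAAT and MYB). The TSS is the canonical one, except for LIN54, where it is the one nearest the best summit; LIN52 and LIN54 each show a pair of narrow peaks, the stronger upstream, while the wide peaks of RBL1, FOXM1, RBBP4 and RB1 have their summits 70 to 89 bp upstream of the TSS.

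Few of the searched motifs lay at the summits. Within 50 bp of the best summits, a CHR was found at 1 gene (LIN9, against 3.88% of 10178 best promoter peaks of protein-coding genes) and a MYB match at 1 (LIN9, against 8.43%). CCAAT boxes were found at 3 (RBBP4, DYRK1A and LIN52, against 9.72%), the RBBP4 summit lying between a pair of them. No gene had an E2F motif (1.75%) or an ETS core (3.48%) in that window. The map of promoter peaks places the CHR or E2F letters downstream of the summit in RBL2 (by 53 bp), RBL1 (by 63 and 73 bp) and RB1 (by 64 bp).

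For that reason the windows at the TSS were also searched, a choice made after the summits had been examined. For every gene, background included, the window was set at the canonical TSS, or, where that TSS had no promoter peak but another did, at the TSS nearest the best summit. LIN54 was the only gene of the 10 searched at a TSS other than the canonical one. A CHR was found in 3 of the 10 genes (LIN9 and RBL2 among them), against 3.84% of 11918 bound protein-coding genes. This count depends on where the window ends, since the letters TTTGAA of LIN54 follow directly after its window. An E2F motif was found in 3 (LIN52, RB1 and RBL1), against 2.56%. A CCAAT box was found in 3 (LIN37 and RBBP4 among them), against 23.2%. A MYB match was found in 2 (RB1 and DYRK1A), against 10.2%, and the ETS core in 0, against 7.89%. Because the window was set with the matches in view, and 10 genes are few, these counts are a description. A match is not a binding site, and the lack of one says only that these letters are not in the window.

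The promoters of MuvB and pocket protein genes were set beside 2 other lists from the same pathway. These were written from general knowledge, but with earlier results of these data known, so they are not an independent yardstick. The partner list holds 18 genes for the remaining DREAM subunits, relatives of the members, and cyclins and kinases that act on them. Of these, 17 had a promoter peak, with a median fold enrichment of 8.36 and 7 above the coding median. They ranged from TFDP2 (a DP protein; 4.48) to CCND1 (cyclin D1; 34.5), and CCNE1 (cyclin E1) had no promoter peak. The target list holds 16 G2 and M phase genes known to be bound by the complex. All 16 had a promoter peak, from 12.7 at CENPE (a mitotic kinesin) to 29.6 at PLK1 (a mitotic kinase), with a median of 14.5.

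By point value, the 10 genes reached lower than the target genes. LIN54, LIN52, DYRK1A, LIN9, RB1 and RBBP4 all had best peaks weaker than that of CENPE, the weakest target. LIN52 and LIN54 had intervals wholly below that of CENPE (9.62 to 16.4). The intervals of DYRK1A, LIN9, RB1 and RBBP4 overlapped its own, which does not show that these genes equalled CENPE. FOXM1, RBL1, RBL2 and LIN37 fell within the target range. The same windows at the TSS were searched in both lists. The target genes held a CHR in 10 of 16 windows and a CCAAT box in 15 of 16, against 3.84% and 23.2% of bound protein-coding genes. They held an E2F motif in 0 of 16, against 2.56%. The partner genes held a CHR in 1 of 18 windows and an E2F motif in 0 of 18, against 4.86% and 2.00% of all protein-coding genes. At such low shares, counts of 0 or 1 in lists this short are near the background. No test was made of these counts, since genes are not replicates.

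**Figure D3:**
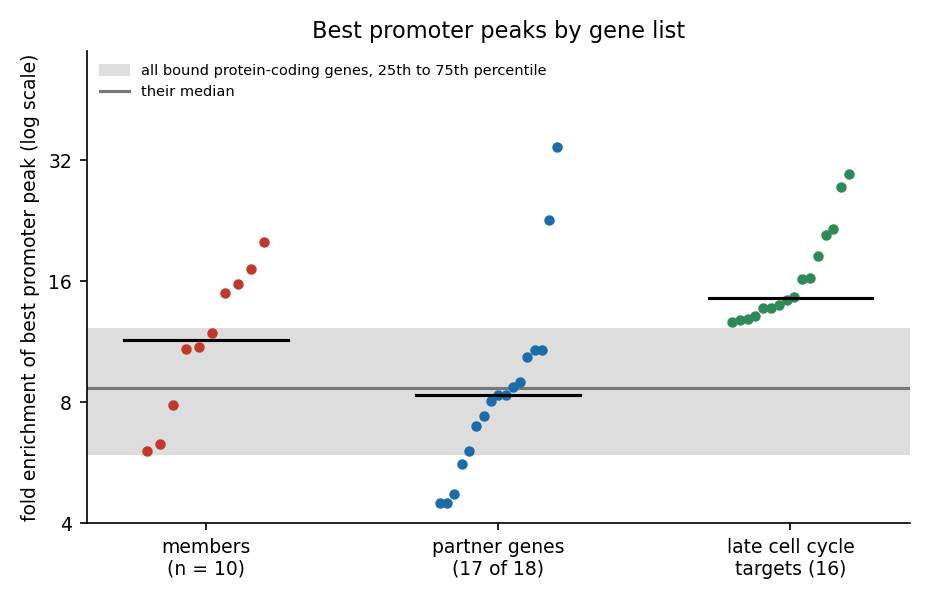
Fold enrichment of the best promoter peak (log axis), 1 point per gene, for the 10 genes described here, the 18 partner genes (17 with a promoter peak) and the 16 target genes, with each list's median as a black line and the median (8.67) and 25th to 75th percentile of all bound protein-coding genes in grey. The target genes all lie above that median, while 7 genes of each other list do.

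Beyond the promoters, 110 peaks lay inside the 10 genes and outside every promoter window, and 94 of them were in DYRK1A and RBBP4. Over the 14863 protein-coding genes of at least 10 kb, 57.1% had no such peak and the pooled density was 2.57 per 100 kb. DYRK1A held 68, or 42.3 per 100 kb, a density above that of 98.4% of those genes. RBBP4 held 26, or 74.1 per 100 kb, above 99.8%. The other 8 genes held 16 in all.

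These peaks were scattered and weak. Over all such peaks of protein-coding genes of at least 10 kb the median fold enrichment was 3.49, so weak peaks were usual. In DYRK1A the fold enrichments ran from 2.32 to 4.15 (median 3.19) on 15 to 30 fragments, with 64 summits in introns, 3 in the 3′ UTR and 1 in a coding exon. They reached from 2925 to 155656 bp past the canonical TSS. In RBBP4 the values ran from 2.24 to 7.45 (median 3.47), with 19 summits in introns and 7 in the 3′ UTR. Only 2 of the RBBP4 peaks reached 5, the stronger (chr1:33118322-33119247, 37 fragments) 2327 bp into the gene. The local background from the input had a median of 5.60 fragments under the DYRK1A peaks and 5.12 under the RBBP4 peaks. Under all such peaks of the long genes it was 4.59. Its part in the counts was not tested.

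By number, the other genes had few peaks beyond the promoter, and those of the long RB1 and LIN54 genes numbered 1 and 0. FOXM1 held 5, RBL1 4, LIN52 3, RBL2 2, LIN9 1 and the short LIN37 0. Per 100 kb, FOXM1 had 25.6, a density above that of 96.3% of the protein-coding genes of at least 10 kb. RBL1 had 4.01 per 100 kb, RBL2 3.47, LIN52 2.57, LIN9 1.27 and RB1 0.338, against the pooled 2.57. The strongest peak inside any of the 10 genes away from promoters was in an intron of LIN52, at chr14:74606948-74607459, 55508 bp from the TSS. It had a fold enrichment of 10.0 (7.48 to 13.2) from 49 fragments, above the 6.29 of the best LIN52 promoter peak by its point value, with overlapping intervals. In addition, 4 peaks inside or at the end of member genes lay only in the promoter window of another gene. They included a peak of 7.95 within RB1 at the promoter of RCBTB2 and a peak of 7.32 at the 3′ end of FOXM1 at the promoters of ITFG2 and TEX52.

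**Figure D4:**
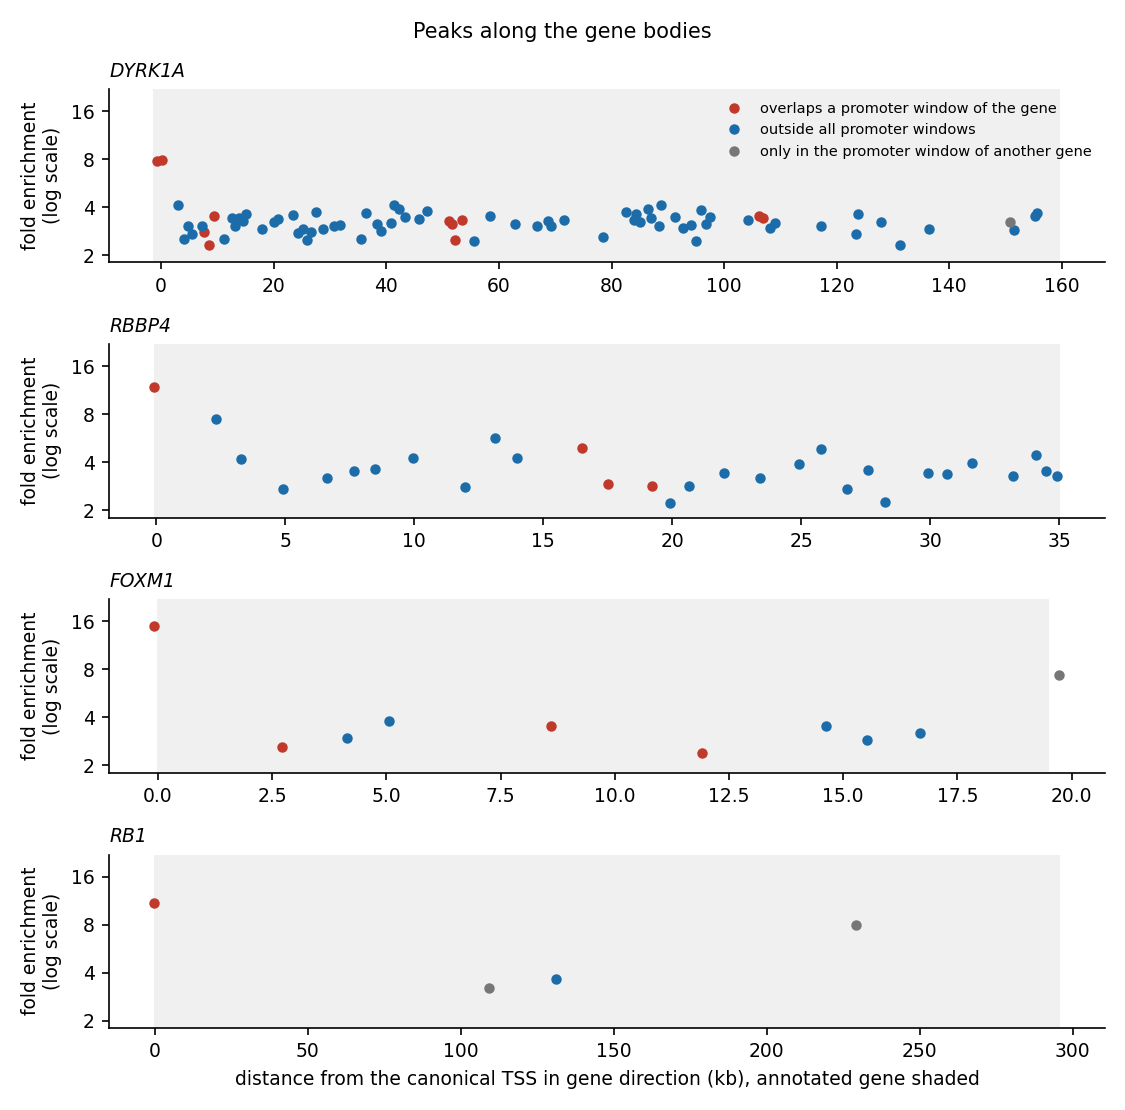
Peaks along DYRK1A, RBBP4, FOXM1 and RB1, by distance of the summit from the canonical TSS (kb, in the direction of the gene) and fold enrichment (log axis), with the annotated gene shaded. Red peaks overlap a promoter window of the gene, blue peaks none and grey peaks only that of another gene; DYRK1A (68 blue) and RBBP4 (26 blue) are dotted along their length, while RB1, the longest gene of the set at 295693 bp, has 1 blue peak.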

How the data were processed

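Per the methods of the study, the authors aligned single-end reads to hg19 with Bowtie2 2.1.10, filtered them on mapping quality and called narrow peaks with MACS2 2.0.10 against the input at a q of 0.05. How the list was then cleaned is not given in the sources used here. The deposited list gives for each peak a fold enrichment, −log10 p and −log10 q, and a score that repeats the q, all made by the authors. The fold enrichment is a linear ratio of summit pileup to local background, with a constant added to both. The input library entered only through those calls.

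Here the pileup was recovered as the whole number that solves both fold enrichment and p (66954 of 66954 peaks, largest misfit 3.49e-05 in −log10 p). In this solution 1 was added to the pileup and 1 to the background before the ratio was taken. Summit pileups ran from 11 to 293 fragments (median 20). Exact Poisson intervals are at 95% (SciPy 1.17.1). Promoters came from GENCODE version 44 lifted to GRCh37, whose coordinates equal hg19. The steps were tested on simulated data. With 1 library per group no test was made. The members and gene lists were chosen with earlier results of these data known. Named genes were all members, the genes sharing their promoter peaks, and the strongest, weakest and unbound genes of each other list. Genes named at peaks inside members, and the windows at the TSS, were chosen after their values were seen. Alternatives were stricter peak thresholds, other windows, TSS sets, overlaps, rankings and motif widths. The promoter sequence of FOXM1 is not reported here.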

Additional observations from a re-analysis of the deposited data

How the results depend on the processing

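The results that rest on promoter peaks moved little. The 10 genes each kept a promoter peak with −log10 q or fold enrichment of at least 5, with windows of 500 bp, with windows of 5000 bp upstream to 1000 bp downstream, with the summit in the window and with TSSs of protein-coding transcripts, and 9 did with canonical TSSs alone. At LIN52, the fold enrichment of at least 5 rested on the peak beside the ALDH6A1 TSS. The median fold enrichment was 11.5 to 11.9. Motif counts at the summits depended on the width searched. With 100 bp either side, 3 genes had a CHR, 3 an E2F motif and 3 a MYB match, and with 25 bp either side 0 had a MYB match. Counts at the TSS moved less with the width. From 250 bp before to 50 bp after the TSS, 4 genes had a CHR, 4 a CCAAT box, 3 an E2F motif and 3 a MYB match. The number of peaks outside promoters depended most on the threshold. It was 33 with −log10 q of at least 5, 3 with fold enrichment of at least 5, and 16 without DYRK1A and RBBP4, an alternative chosen after seeing the data. By construction, a wider window finds more letters and a stricter threshold keeps fewer peaks. No paired analysis was possible because the series has 1 ChIP library. With 22 fragments, as at the LIN52 TSS, the interval was 13.8 to 33.3 fragments, which is the counting error of that peak alone. The smallest difference between peaks that this depth could resolve was not computed.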
